A study of Mus musculus with 24 samples.

Results

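The 35 genes described here carry glucose from uptake through glycolysis to lactate export or to the entry of pyruvate into the mitochondrion, with 2 genes of glycogen synthesis. They were chosen by name as members of these pathway steps, with earlier results of these data known. Each symbol occurred once among the 47729 genes of the deposited table. All 35 passed the filter on low values, which asked for 4 or more libraries at a level of at least 1 TPM, as did 15736 genes in all. TPM is a relative level, corrected for gene length and scaled to the same total in every library. RNA-seq was carried out on pieces of spontaneous MMTV-Wnt1 mammary tumours (B6SJL-Tg(Wnt1)1Hev/J donors) that had been transplanted into C57BL/6J mice and had grown to about 200 mm3 on Day 1. E7386 is described as a small molecule that acts on the binding of β-catenin to CBP, a coactivator of Wnt target genes. It was given by mouth at 50 or 25 mg/kg, 2 times a day, and other mice received vehicle. Tumours were taken on Day 4 after 3 days of dosing or on Day 8 after 7 days. The 6 groups were therefore E7386 50 mg/kg, E7386 25 mg/kg and vehicle on day 8, and the same 3 on day 4, with 4 libraries each. Every group carries the transgene, in which the mouse mammary tumour virus promoter drives Wnt1, and all hosts are of 1 strain. Whether each library is a different mouse is not stated in the labels, and every p-value is then against library-to-library spread, part of which may be technical.

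Glycolysis splits glucose into pyruvate in the cytosol and yields ATP without oxygen. Lactate dehydrogenase turns pyruvate into lactate, which leaves the cell through monocarboxylate transporters, whereas the pyruvate dehydrogenase complex, restrained by its kinases, turns pyruvate inside the mitochondrion into acetyl-CoA. Fast-growing tumours are known for high glycolysis, and many of these genes are known targets of the hypoxia-inducible factors and of Myc.

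The epithelial markers Epcam, Krt8 and Krt5 were present in all 24 libraries, with Epcam between 367 and 514 TPM. Between 14496 and 15127 genes reached 1 TPM per library, and Pearson's r between libraries on the log2 scale ran from 0.953 to 0.988. The table keeps no read depth, so no counting intervals are given. Markers of other cell types differed between libraries: the summed level of 15 skeletal muscle genes ran from 16.4 to 925 TPM, and that of 12 macrophage genes from 577 to 2267 TPM. In such bulk samples, fewer cells of a type and less RNA per cell cannot be told apart.

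After 3 days at 50 mg/kg, 17 of the 35 members were lower than in vehicle and 1, Pdk4, was higher, and after 7 days 15 were lower and none was higher (limma across all genes, adjusted p below 0.05). Among all genes tested, 9.26% passed on day 4 (4.95% higher and 4.31% lower) and 2.78% on day 8 (0.763% higher and 2.02% lower). Scaling by TMM factors, a trimmed mean over genes, gave 603 higher and 858 lower genes on day 4 in place of 779 and 678, and 201 higher and 219 lower on day 8 in place of 120 and 318. With it the members were 17 lower and 1 higher on day 4 and 13 lower on day 8. The median log2 fold change of the 35 members was -0.39 on day 4 and -0.32 on day 8, against 0.03 and -0.02 over all genes tested. All libraries at 50 mg/kg lay below all vehicle libraries for 19 members on day 4 and 14 on day 8, where 7.98% and 4.92% of all genes did so. They lay above for 1 member on day 4 and none on day 8, where 10.4% and 1.58% of all genes did so.

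The members' TPM values summed to 5123 ± 319 at 50 mg/kg and 7704 ± 549 in vehicle on day 4, and to 5601 ± 267 at 50 mg/kg and 7775 ± 1232 in vehicle on day 8 (SD, n = 4 each). That is a mean of 0.512% of the library total at 50 mg/kg and 0.770% in vehicle on day 4, and 0.560% at 50 mg/kg and 0.778% in vehicle on day 8. The summed levels of the groups did not overlap on either day, with 4852 to 5553 TPM at 50 mg/kg and 7234 to 8400 TPM in vehicle on day 4, and 5217 to 5835 TPM at 50 mg/kg and 6737 to 9256 TPM in vehicle on day 8. The 9 mammary epithelial markers summed to 3417 to 3860 TPM at 50 mg/kg and 2752 to 3475 TPM in vehicle on day 4, and to 3625 to 5697 TPM at 50 mg/kg and 3203 to 3909 TPM in vehicle on day 8. The 12 macrophage markers summed to 952 to 2267 TPM at 50 mg/kg and 636 to 1433 TPM in vehicle on day 4. Their part in the members' levels was not tested.

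The genes that were lower on day 4 and on day 8 were 13 of the 17 and 13 of the 15: the glucose transporter gene Slc2a1, the glycolytic genes Gpi1, Pfkl, Pfkfb3, Aldoa, Tpi1, Pgk1, Pgam1 and Eno1, then Ldha, the lactate exporter gene Slc16a3, the kinase gene Pdk1 and the glycogen synthase gene Gys1. Gapdh, Ldhb, Pfkm and Pkm passed on day 4 and not on day 8, Pfkp and Slc2a3 on day 8 and not on day 4, and 15 members passed on neither day. Of the 35 log2 fold changes, 30 had the same sign on both days, a count with no share over all genes beside it. The comparisons of the 2 days share no library. On day 4, 15 of the 18 calls held in all 18 alternatives run. The calls of day 8 rest on a spread estimated from all 24 libraries: in a fit of the 50 mg/kg and vehicle groups of day 8 alone, 12 of the 15736 genes passed and none of the 35, and the 15 members had adjusted p-values from 0.056 (Slc2a1) to 0.32 (Pgam1).

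**Figure D1:**
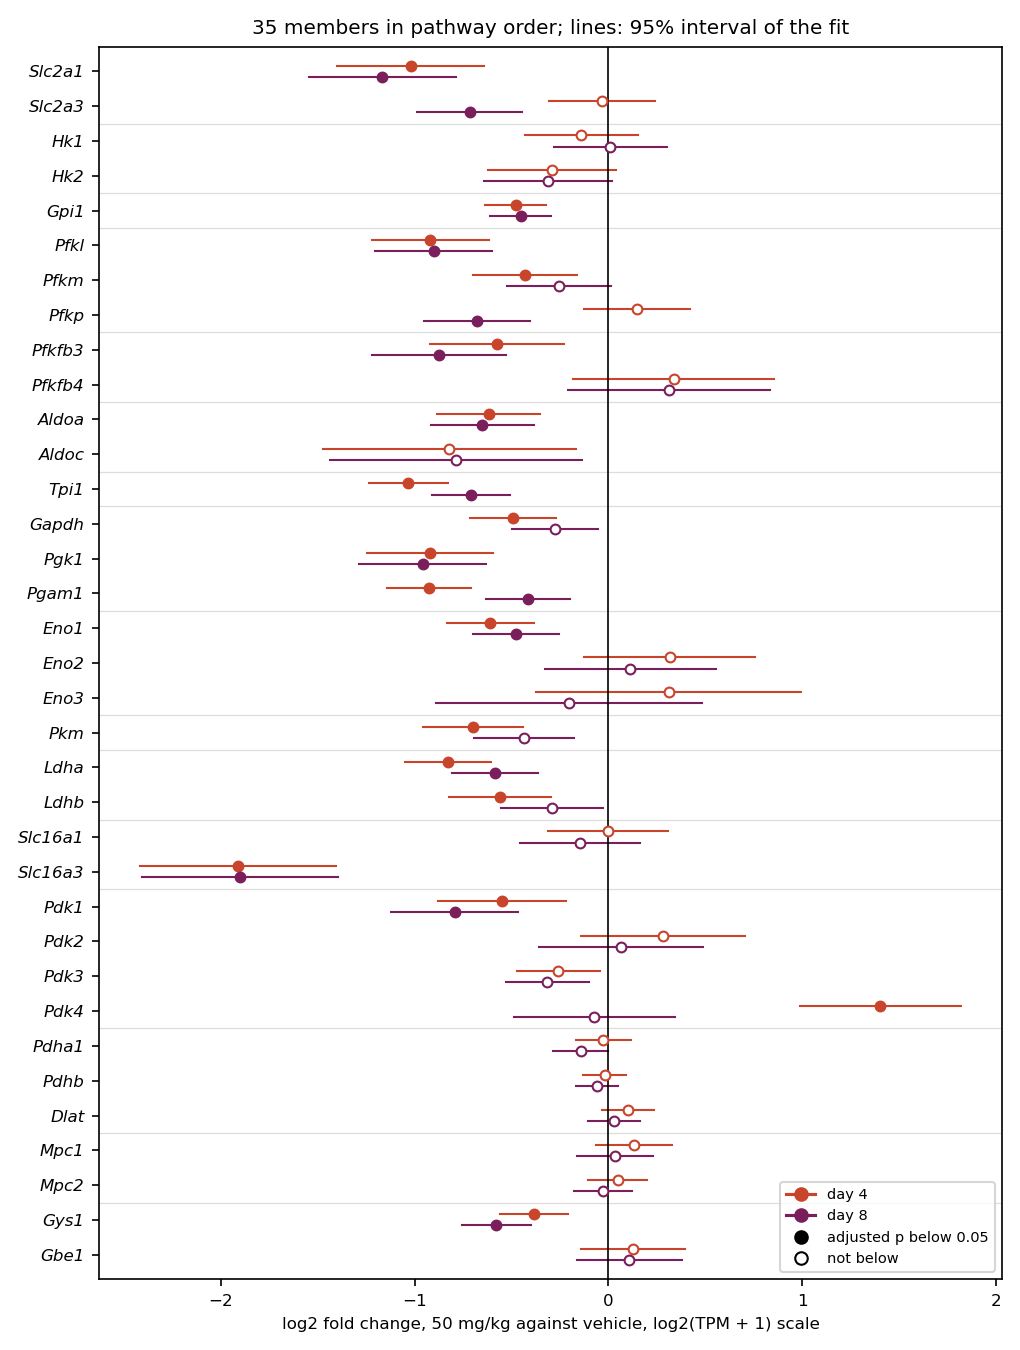
Log2 fold change of each of the 35 members, 50 mg/kg against vehicle, on the log2(TPM + 1) scale, in pathway order from glucose uptake (top) to glycogen synthesis (bottom), for day 4 and day 8. Lines are the fit's 95% intervals and filled points have an adjusted p below 0.05. Most points lie left of 0 on both days, Slc16a3 lies farthest left at -1.91 and -1.90, and the genes of the pyruvate dehydrogenase complex and the pyruvate carrier lie near 0.

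Promoter sequences are shown for the 4 members with the smallest day 8 p among the 13 that were lower on both days, so that a reader can see the sequence upstream of genes that fell together. The windows are RefSeq's, 250 bases before to 50 after the gene start on build GRCm38.p6, printed 5′ to 3′ on the gene's strand. Capitals mark the letters ACGTG and GCGTG, found on either strand, so that CACGC in capitals is GCGTG on the other strand. These letters are the core known to be bound by hypoxia-inducible factors, and ACGTG is also part of CACGTG, the E-box bound by Myc, which none of the 4 windows holds. The Slc16a3 window is at chr11:120948817-120949116 on the plus strand, inside the gene's GENCODE span of 120948480 to 120960868. Tpi1 is at chr6:124814109-124814408 on the minus strand, Gys1 at chr7:45434589-45434888 on the plus strand and Slc2a1 at chr4:119108495-119108794 on the plus strand.
Slc16a3: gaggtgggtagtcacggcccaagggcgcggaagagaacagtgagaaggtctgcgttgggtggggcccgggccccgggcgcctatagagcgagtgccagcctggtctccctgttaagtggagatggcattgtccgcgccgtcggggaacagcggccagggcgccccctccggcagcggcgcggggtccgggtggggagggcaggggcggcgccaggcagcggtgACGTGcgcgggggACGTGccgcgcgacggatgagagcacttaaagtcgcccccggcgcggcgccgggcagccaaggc
Tpi1: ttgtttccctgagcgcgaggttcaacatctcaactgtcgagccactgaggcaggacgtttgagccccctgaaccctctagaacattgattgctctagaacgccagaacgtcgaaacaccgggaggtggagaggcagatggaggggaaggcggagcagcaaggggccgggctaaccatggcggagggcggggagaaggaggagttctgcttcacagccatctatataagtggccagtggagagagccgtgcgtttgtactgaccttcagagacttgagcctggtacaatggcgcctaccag
Gys1: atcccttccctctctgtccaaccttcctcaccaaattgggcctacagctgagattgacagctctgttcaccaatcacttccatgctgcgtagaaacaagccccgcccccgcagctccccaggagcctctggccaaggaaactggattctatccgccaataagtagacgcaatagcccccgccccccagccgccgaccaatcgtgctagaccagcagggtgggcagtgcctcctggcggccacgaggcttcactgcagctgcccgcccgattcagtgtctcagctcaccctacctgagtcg
Slc2a1: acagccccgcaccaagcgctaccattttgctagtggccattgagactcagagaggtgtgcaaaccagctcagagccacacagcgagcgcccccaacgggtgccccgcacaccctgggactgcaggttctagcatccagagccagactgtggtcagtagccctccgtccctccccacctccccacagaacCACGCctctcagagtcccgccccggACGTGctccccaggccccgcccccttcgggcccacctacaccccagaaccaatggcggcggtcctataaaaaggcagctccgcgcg

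The Slc16a3 window holds ACGTG 2 times, that of Slc2a1 holds ACGTG once and GCGTG once, and those of Tpi1 and Gys1 hold neither. RefSeq windows were found for 34 of the 35 members, Slc2a3 being the other. At least 1 of the 2 motifs was in 25 of these 34 windows (73.5%), against 14380 of all 32851 promoter windows (43.8%). ACGTG alone was in 41.2% of the members' windows and in 19.6% of all windows, and GCGTG in 55.9% and in 32.4%. The members all passed the filter on low values and give 1 window each. The full set was not limited to such genes or to 1 window per gene, so the shares are not of matched sets. Within the members, 9 of the 13 genes lower on both days held at least 1 of the motifs (69.2%), and so did 11 of the 15 that passed on neither day (73.3%). These matches are letters in a window and describe no binding.

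Glucose enters through transporters of the GLUT family, and the major one here, Slc2a1 (GLUT1), was lower at 50 mg/kg on both days. Slc2a1 had 21.3, 19.9, 24.2 and 19.9 TPM at 50 mg/kg and 39.3, 39.2, 55.9 and 44.03 TPM in vehicle on day 4. The day 8 levels were 21.98, 29.8, 21.5 and 26.8 TPM at 50 mg/kg and 72.6, 44.7, 59.2 and 54.8 TPM in vehicle. The groups did not overlap on either day, and the mean at 50 mg/kg was 47.8% of that in vehicle on day 4 (log2 fold change -1.02, SE 0.18, adjusted p = 0.00139) and 43.3% on day 8 (log2 fold change -1.17, SE 0.18, adjusted p = 0.00127). Slc2a3 (GLUT3), a transporter known from neurons and leukocytes, was a minor transcript with a mean of 2.77 TPM. It had 1.8, 1.39, 2.02 and 2.25 TPM at 50 mg/kg and 4.75, 3.57, 3.24 and 3.3 TPM in vehicle on day 8, with every 50 mg/kg library below every vehicle library (log2 fold change -0.72, SE 0.13, adjusted p = 0.00404). On day 4 it had 2.87, 2.5, 2.44 and 2.49 TPM at 50 mg/kg and 1.95, 2.45, 3.06 and 3.3 TPM in vehicle, which overlap (-0.03, adjusted p = 0.91). The difference of the 50 mg/kg effect on Slc2a3 between day 8 and day 4 did not pass (-0.68, adjusted p = 0.0663). The 12 macrophage markers summed to 1109 to 1794 TPM at 50 mg/kg and 577 to 1562 TPM in vehicle on day 8, and 7 neutrophil markers, of which Ly6g was at 0 in 22 libraries, to 21.3 to 99.95 TPM at 50 mg/kg and 32.5 to 344 TPM in vehicle. Their part in the Slc2a3 difference was not tested.

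The hexokinase genes, whose enzymes trap glucose in the cell as its phosphate, passed in no comparison. Hk1 averaged 56.3 ± 8.997 TPM at 50 mg/kg and 61.6 ± 3.19 TPM in vehicle on day 4. On day 8 the mean was 68.4 ± 10.6 TPM at 50 mg/kg and 67.6 ± 7.35 TPM in vehicle. Hk2, the isoform best known from tumours, averaged 12.9 ± 1.89 TPM at 50 mg/kg and 15.9 ± 1.57 TPM in vehicle on day 4. On day 8 the mean was 14.6 ± 4.82 TPM at 50 mg/kg and 17.9 ± 2.65 TPM in vehicle (SD, n = 4 each). The 95% intervals of the Hk2 difference, -0.62 to 0.04 on day 4 and -0.64 to 0.02 on day 8 (log2), reach from a fall to just above 0 on both days.

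The next steps of upper glycolysis, from isomerase to triose phosphates, held 6 lower members of 9 on each day. Gpi1, the glucose phosphate isomerase, had 549, 632, 632 and 595 TPM at 50 mg/kg and 767, 802, 888 and 904 TPM in vehicle on day 4. After 7 days it had 601, 678, 636 and 689 TPM at 50 mg/kg and 1007, 862, 878 and 822 TPM in vehicle. Each 50 mg/kg library was below each vehicle library of its day, and the difference was of similar size on both days (log2 fold change -0.48, SE 0.08, adjusted p = 0.000411 on day 4 and log2 fold change -0.45, SE 0.08, adjusted p = 0.002 on day 8).

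Phosphofructokinase, the committed step of glycolysis, is built from liver (Pfkl), muscle (Pfkm) and platelet (Pfkp) subunits. Pfkl was lower on both days, Pfkm on day 4 and Pfkp on day 8. Pfkl, the most abundant in vehicle, had 44.8, 64.9, 53.4 and 53.2 TPM at 50 mg/kg and 89.1, 102, 115 and 104 TPM in vehicle on day 4. After 7 days the values were 48.1, 73.2, 54.3 and 68.4 TPM at 50 mg/kg and 137, 109, 113 and 97.5 TPM in vehicle. The groups stood apart on both days (log2 fold change -0.92, SE 0.14, adjusted p = 0.000409 on day 4 and log2 fold change -0.90, SE 0.14, adjusted p = 0.00154 on day 8). Pfkp had 29.4, 28.1, 28.97 and 38.1 TPM at 50 mg/kg and 62.6, 42.9, 42.8 and 54.9 TPM in vehicle on day 8, where it was lower without overlap (log2 fold change -0.68, SE 0.13, adjusted p = 0.00638). On day 4 Pfkp had 58.05, 42.5, 57.6 and 46.2 TPM at 50 mg/kg and 39.5, 45.6, 49.6 and 48.2 TPM in vehicle, with overlapping libraries (0.15, adjusted p = 0.506). The 50 mg/kg effect on Pfkp differed between the days by -0.83 (log2, day 8 minus day 4; SE 0.19, adjusted p = 0.0289), and Pdk4 was the other of the 2 members with such a difference, both below 0, where 1.44% of all genes passed (1.09% below 0). TMM factors gave 72 genes above 0 and 76 below for that difference in place of 55 and 171, with the same 2 members. That call on Pfkp ended in 9 of 26 alternatives (adjusted p up to 0.105). They were the fit of the compared groups alone, the fits without vehicle replicate 1 or 2 or 50 mg/kg replicate 3 of day 4, and those without vehicle replicate 1 or 4 or 50 mg/kg replicate 1, 2 or 3 of day 8. Pfkm had 6.35, 8.3, 6.0 and 8.05 TPM at 50 mg/kg and 9.63, 9.32, 9.2 and 11.7 TPM in vehicle on day 4 (log2 fold change -0.43, SE 0.13, adjusted p = 0.0408). Day 8 libraries had 10.7, 8.01, 6.52 and 7.93 TPM at 50 mg/kg and 9.47, 10.2, 10.5 and 9.7 TPM in vehicle (-0.25, adjusted p = 0.312). The day 4 call on Pfkm ended in 9 of 18 alternatives, among them leaving out any 1 vehicle library or 50 mg/kg replicate 1 or 3.

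As a share of the 3 subunit genes' summed TPM, Pfkl made up 48.04% ± 6.37 at 50 mg/kg and 64.8% ± 1.11 in vehicle on day 4 (SD, n = 4 each), with ranges of 41.01% to 56.1% and 63.6% to 66.2%. Pfkp made up 45.5% ± 7.195 at 50 mg/kg and 28.9% ± 0.398 in vehicle on day 4, so that the 2 genes had nearly equal levels at the higher dose. On day 8 the Pfkl share was 60.4% ± 5.13 at 50 mg/kg and 65.2% ± 3.56 in vehicle and the Pfkp share 31.1% ± 3.69 at 50 mg/kg and 29% ± 3.75 in vehicle, with overlapping libraries for both.

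The switch enzymes Pfkfb3 and Pfkfb4 make and remove the sugar bisphosphate that activates phosphofructokinase. Pfkfb3, whose product is known for its high kinase activity, had 10.9, 8.2, 8.3 and 9.84 TPM at 50 mg/kg and 13.01, 11.6, 19.96 and 13.8 TPM in vehicle on day 4. On day 8 it had 8.33, 10.3, 8.84 and 9.16 TPM at 50 mg/kg and 21.1, 13.6, 18.3 and 17.9 TPM in vehicle. It was lower without overlap on both days (log2 fold change -0.58, SE 0.17, adjusted p = 0.0333 on day 4 and log2 fold change -0.87, SE 0.17, adjusted p = 0.00565 on day 8), although the day 4 call ended without the filter and without vehicle replicate 1, 3 or 4 or 50 mg/kg replicate 2 or 3 (adjusted p up to 0.13). Pfkfb4 had 10.3, 8.33, 8.53 and 13.8 TPM at 50 mg/kg and 6.82, 8.62, 10.2 and 5.89 TPM in vehicle on day 4. The day 8 levels were 8.44, 9.24, 14.04 and 19.9 TPM at 50 mg/kg and 7.89, 7.78, 8.82 and 15.7 TPM in vehicle. Its point estimates lay above 0 on both days and did not pass (0.34, adjusted p = 0.418 on day 4; 0.31, adjusted p = 0.546 on day 8).

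Aldolase cleaves the hexose bisphosphate into 2 trioses. Aldoa, the main isoform here, had 467, 420.1, 504 and 571 TPM at 50 mg/kg and 695, 731, 794 and 779 TPM in vehicle on day 4. After 7 days it had 496, 482, 509 and 656 TPM at 50 mg/kg and 1043, 687, 837 and 809 TPM in vehicle. Every 50 mg/kg library was below every vehicle library of its day (log2 fold change -0.62, SE 0.13, adjusted p = 0.00477 on day 4 and log2 fold change -0.65, SE 0.13, adjusted p = 0.00707 on day 8). Aldoc, the brain-type isoform, had 67.7, 79.5, 74.4 and 115 TPM at 50 mg/kg and 138, 118, 221 and 128 TPM in vehicle on day 4. After 7 days the values were 76.1, 186, 81.5 and 74.9 TPM at 50 mg/kg and 212, 198, 185 and 101 TPM in vehicle. Its groups did not overlap on day 4 and did on day 8, and its estimates, with a larger SE than those of Aldoa, did not pass (log2 fold change -0.82, SE 0.31, adjusted p = 0.104 on day 4 and log2 fold change -0.79, SE 0.31, adjusted p = 0.181 on day 8). Aldoa made up 85.4% ± 2.12 of the pair's TPM at 50 mg/kg and 83.4% ± 3.68 in vehicle on day 4.

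Tpi1, whose enzyme interconverts the 2 trioses, gave the smallest adjusted p of all members on day 4. It had 187, 178, 183 and 191 TPM at 50 mg/kg and 338, 388, 412 and 381 TPM in vehicle on day 4. Day 8 libraries had 231, 237, 213 and 241 TPM at 50 mg/kg and 444, 318, 413 and 348 TPM in vehicle. The 50 mg/kg libraries of each day lay within a narrow band well below vehicle (log2 fold change -1.03, SE 0.10, adjusted p = 6.62e-07 on day 4 and log2 fold change -0.71, SE 0.10, adjusted p = 0.000381 on day 8). The mean was 48.6% of vehicle on day 4 and 60.5% on day 8, and the difference between the days did not pass (0.32, adjusted p = 0.244).

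**Figure D2:**
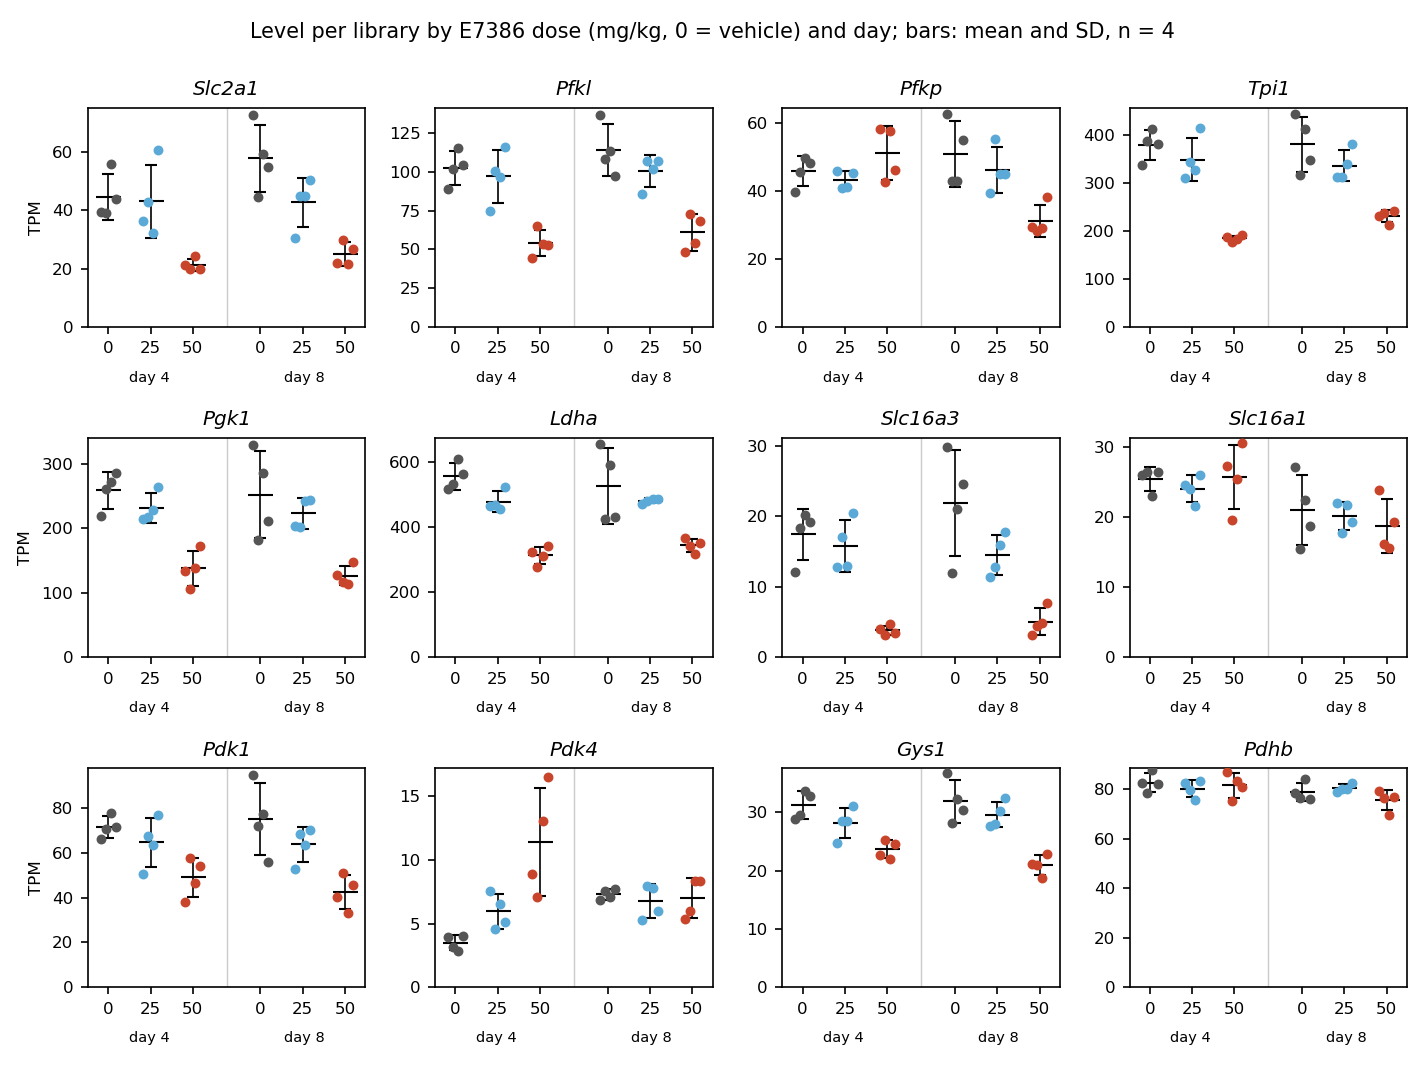
Level in TPM of 12 members in each of the 24 libraries, by E7386 dose in mg/kg (0 is vehicle) and day, with the mean and SD of 4 libraries per group. For Slc2a1, Pfkl, Tpi1, Pgk1, Ldha, Slc16a3, Pdk1 and Gys1 the 50 mg/kg libraries lie below vehicle on both days, Pfkp lies below on day 8, Pdk4 lies above on day 4, and Slc16a1 and Pdhb overlap throughout.

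Of the 7 members of lower glycolysis, 5 were lower on day 4 (Gapdh, Pgk1, Pgam1, Eno1 and Pkm) and 3 on day 8 (Pgk1, Pgam1 and Eno1). Gapdh, the dehydrogenase that opens this part of the pathway and the most abundant member with a mean of 1358 TPM, had 989, 1039, 1081 and 1158 TPM at 50 mg/kg and 1491, 1354, 1636 and 1528 TPM in vehicle on day 4 (log2 fold change -0.49, SE 0.11, adjusted p = 0.00723). On day 8 it had 1353, 1212, 1136 and 1128 TPM at 50 mg/kg and 1786, 1252, 1612 and 1255 TPM in vehicle (log2 fold change -0.28, SE 0.11, adjusted p = 0.17). The day 4 groups did not overlap and those of day 8 did. Pgk1, whose kinase yields the first ATP of the pathway, had 134, 106, 139 and 173 TPM at 50 mg/kg and 219.6, 261, 272 and 286 TPM in vehicle on day 4. The day 8 levels were 128, 117, 114 and 147 TPM at 50 mg/kg and 329.8, 182, 287 and 212 TPM in vehicle, and it was the most reduced of the 7 on that day (log2 fold change -0.92, SE 0.16, adjusted p = 0.000863 on day 4 and log2 fold change -0.96, SE 0.16, adjusted p = 0.00168 on day 8).

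Pgam1, the phosphoglycerate mutase, had 219, 217, 220.5 and 241 TPM at 50 mg/kg and 411, 404, 469 and 425 TPM in vehicle on day 4 (log2 fold change -0.92, SE 0.10, adjusted p = 7.07e-06). After 7 days it had 332, 285, 270 and 286 TPM at 50 mg/kg and 467, 323, 457 and 335 TPM in vehicle (log2 fold change -0.42, SE 0.10, adjusted p = 0.0342). The day 8 libraries overlapped, and that call ended in 8 of 18 alternatives, among them without vehicle replicate 1 or 3 or 50 mg/kg replicate 2, 3 or 4 and with TMM factors. The point estimate of Pgam1 was smaller on day 8 than on day 4, and the difference did not pass (0.51, adjusted p = 0.0868).

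Enolase, which makes phosphoenolpyruvate, was almost wholly Eno1, with Eno2 (neuronal) and Eno3 (muscle) adding little. Eno1 had 611, 527, 596 and 669.8 TPM at 50 mg/kg and 863, 856, 1025 and 925 TPM in vehicle on day 4. After 7 days the values were 638, 653, 572 and 688 TPM at 50 mg/kg and 1086, 765, 1006 and 737 TPM in vehicle. The groups did not overlap (log2 fold change -0.61, SE 0.11, adjusted p = 0.00126 on day 4 and log2 fold change -0.48, SE 0.11, adjusted p = 0.0185 on day 8), and the day 8 call ended with TMM factors, in the fit of the 2 groups alone and without vehicle replicate 1 or 3 or 50 mg/kg replicate 3. Eno2 had 3.85, 1.92, 3.39 and 2.29 TPM at 50 mg/kg and 2.05, 2.13, 2.03 and 1.94 TPM in vehicle on day 4. Day 8 libraries had 3.46, 1.55, 2.47 and 3.2 TPM at 50 mg/kg and 1.47, 2.19, 2.14 and 3.91 TPM in vehicle, overlapping on both. Eno3 had 5.82, 6.0, 7.29 and 17.6 TPM at 50 mg/kg and 3.96, 4.86, 7.78 and 11.2 TPM in vehicle on day 4. On day 8 it had 12.7, 7.12, 5.62 and 11.2 TPM at 50 mg/kg and 9.28, 8.69, 13.9 and 9.65 TPM in vehicle, with no call. Its highest library, 50 mg/kg replicate 4 of day 4, also had the highest sum of the 15 skeletal muscle markers of that group, 636 TPM. The muscle sums ran from 19.8 to 636 TPM at 50 mg/kg and 16.4 to 191 TPM in vehicle on day 4, and from 19.4 to 300.4 TPM at 50 mg/kg and 18.1 to 277 TPM in vehicle on day 8. With the mean level of these markers as a covariate, 18 members passed on day 4 and 16 on day 8, and the estimate for Eno3 on day 4 was 0.07. The share of all genes that passed in that fit is not given here, so these counts have no background beside them. The part of muscle in the Eno3 levels was not settled by it.

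Pkm, the pyruvate kinase that ends the pathway, had 574, 544, 602 and 673 TPM at 50 mg/kg and 951, 854, 1079 and 1001 TPM in vehicle on day 4 (log2 fold change -0.70, SE 0.12, adjusted p = 0.00134). The day 8 levels were 677, 637, 607 and 725 TPM at 50 mg/kg and 1112, 709, 1044 and 775 TPM in vehicle (log2 fold change -0.44, SE 0.12, adjusted p = 0.0575). The day 8 value narrowly missed the threshold, with 2 vehicle libraries near the 50 mg/kg level and 2 far above it, and it passed in 6 of 18 alternatives. The table gives 1 value per gene, so the splice forms of Pkm are not separated.

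Lactate dehydrogenase is a tetramer of A and B subunits, of which Ldha is known to favour the formation of lactate. Ldha had 323, 277, 310.3 and 341 TPM at 50 mg/kg and 517, 534, 611 and 563 TPM in vehicle on day 4. After 7 days it had 366, 341, 318 and 352 TPM at 50 mg/kg and 656, 425, 592 and 431 TPM in vehicle. It was lower without overlap on both days (log2 fold change -0.83, SE 0.11, adjusted p = 3.5e-05 on day 4 and log2 fold change -0.59, SE 0.11, adjusted p = 0.00394 on day 8). Ldhb had 45.4, 54.4, 51.9 and 44.5 TPM at 50 mg/kg and 74.7, 75.3, 61.1 and 80.2 TPM in vehicle on day 4 (log2 fold change -0.56, SE 0.13, adjusted p = 0.00931). After 7 days the values were 60.4, 67.4, 51.7 and 49.5 TPM at 50 mg/kg and 68.4, 91.5, 62.7 and 60.5 TPM in vehicle (-0.29, adjusted p = 0.227). The share of Ldha in the pair was 86.3% ± 2.17 at 50 mg/kg and 88.4% ± 1.7 in vehicle on day 4 and 85.8% ± 1.72 at 50 mg/kg and 87.7% ± 3.87 in vehicle on day 8.

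Of the 2 monocarboxylate transporter genes, 1 was lower on both days and the other passed on neither. Slc16a3 (MCT4), the exporter known from strongly glycolytic cells, had the lowest ratio to vehicle of all 35 members on both days. It had 4.04, 3.2, 4.64 and 3.47 TPM at 50 mg/kg and 12.02, 18.4, 20.2 and 19.1 TPM in vehicle on day 4. Day 8 libraries had 3.15, 4.4, 4.88 and 7.68 TPM at 50 mg/kg and 29.8, 11.9, 20.99 and 24.5 TPM in vehicle. The mean at 50 mg/kg was 22.04% of that in vehicle on day 4 (log2 fold change -1.91, SE 0.24, adjusted p = 3.39e-05) and 23.1% on day 8 (log2 fold change -1.90, SE 0.24, adjusted p = 0.000226), and no libraries overlapped. Slc16a1 (MCT1), which carries lactate in either direction, had 27.3, 19.6, 25.4 and 30.5 TPM at 50 mg/kg and 26.01, 26.4, 22.96 and 26.4 TPM in vehicle on day 4. On day 8 it had 23.9, 16.2, 15.6 and 19.3 TPM at 50 mg/kg and 27.2, 15.5, 22.4 and 18.8 TPM in vehicle. Its groups overlapped, and the 95% intervals of the difference were -0.31 to 0.31 on day 4 and -0.46 to 0.16 on day 8 (log2). Slc16a3 thus made up 13.1% ± 2.22 of the pair's TPM at 50 mg/kg and 40.3% ± 6.34 in vehicle on day 4, and 21.4% ± 7.11 at 50 mg/kg and 50.2% ± 5.59 in vehicle on day 8 (SD, n = 4 each). At 25 mg/kg the share was 39.3% ± 4.29 on day 4 and 41.6% ± 5.599 on day 8.

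**Figure D3:**
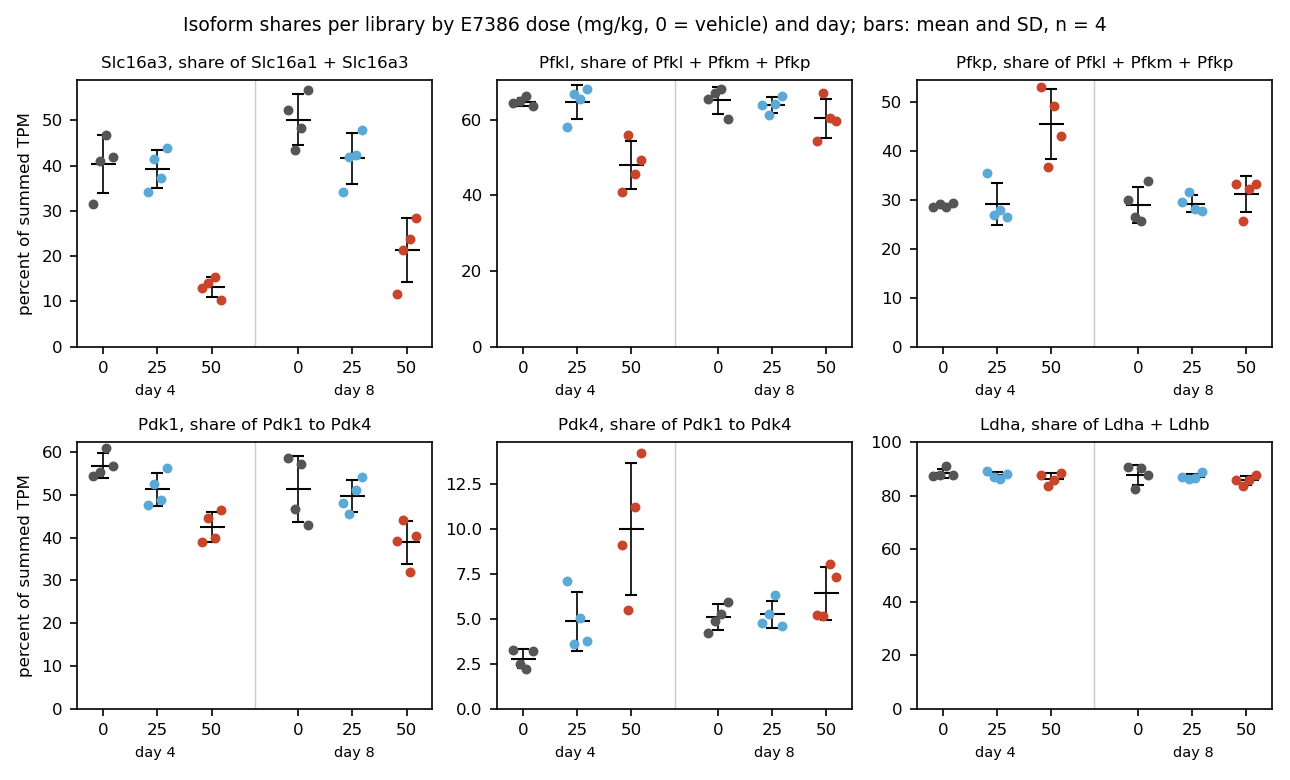
Share in percent of the summed TPM of an isoform set that 1 gene makes up, per library, by E7386 dose in mg/kg (0 is vehicle) and day, with the mean and SD of 4 libraries per group. The share of Slc16a3 is 13.1% at 50 mg/kg and 40.3% in vehicle on day 4, the shares of Pfkl and Pdk1 are lower and those of Pfkp and Pdk4 higher at 50 mg/kg on day 4, and the share of Ldha stays between 82.3% and 90.9% in the 50 mg/kg and vehicle libraries.

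The pyruvate dehydrogenase kinases switch the complex off by phosphorylation, and of the 4 genes Pdk1 was lower on both days and Pdk4 higher on day 4. Pdk1 had 38.2, 57.6, 46.5 and 53.9 TPM at 50 mg/kg and 66.01, 70.7, 77.98 and 71.8 TPM in vehicle on day 4. The day 8 levels were 40.3, 51.1, 33.1 and 45.8 TPM at 50 mg/kg and 94.8, 71.9, 77.2 and 55.98 TPM in vehicle. It was lower without overlap on both days (log2 fold change -0.55, SE 0.16, adjusted p = 0.0329 on day 4 and log2 fold change -0.79, SE 0.16, adjusted p = 0.00812 on day 8), although the day 4 call ended without the filter and without any 1 vehicle library or 50 mg/kg replicate 1 or 3 (adjusted p up to 0.109). Pdk4, a kinase known to be induced in fasting, had 8.92, 7.06, 13.04 and 16.6 TPM at 50 mg/kg and 3.99, 3.16, 2.85 and 4.03 TPM in vehicle on day 4, and was higher without overlap (log2 fold change 1.40, SE 0.20, adjusted p = 0.000129). After 7 days it had 5.33, 6.01, 8.37 and 8.36 TPM at 50 mg/kg and 6.83, 7.55, 7.11 and 7.76 TPM in vehicle, which overlap (-0.07, adjusted p = 0.892). The effect on Pdk4 differed between the days (-1.48, day 8 minus day 4, SE 0.28, adjusted p = 0.01), and this call held in all 26 alternatives run. The vehicle levels also lay apart: Pdk4 averaged 7.31 ± 0.421 TPM in vehicle on day 8 and 3.51 ± 0.594 TPM in vehicle on day 4 (SD, n = 4 each), without overlap, as for 1.8% of all genes, although this did not pass (0.89, adjusted p = 0.281).

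Muscle and fat also express Pdk4. The 6 adipocyte markers, of which Lep was at 0 in 12 libraries, summed to 18.5 to 449 TPM at 50 mg/kg and 18.8 to 158 TPM in vehicle on day 4. With the muscle covariate the day 4 difference of Pdk4 was 1.36 (adjusted p = 0.000283) and that of Pfkm -0.51 (adjusted p = 0.00577). A mean of markers in bulk tissue cannot settle the part of muscle in these levels. The part of fat was not tested. Pdk2 had 33.4, 48.6, 39.4 and 27.1 TPM at 50 mg/kg and 30.7, 33.4, 24.4 and 31.3 TPM in vehicle on day 4. After 7 days the values were 36.95, 44.9, 46.99 and 45.7 TPM at 50 mg/kg and 39.8, 55.1, 27.1 and 50 TPM in vehicle, overlapping on both days. Pdk3 had 17.4, 15.6, 17.3 and 18.6 TPM at 50 mg/kg and 20.6, 20.4, 22.9 and 19.2 TPM in vehicle on day 4, without overlap (-0.26, adjusted p = 0.118). Day 8 libraries had 19.9, 13.99, 15.5 and 13.8 TPM at 50 mg/kg and 20.4, 19.3, 23.3 and 16.5 TPM in vehicle (-0.32, adjusted p = 0.102). Of the 4 kinases' summed TPM, Pdk1 made up 42.5% ± 3.58 at 50 mg/kg and 56.9% ± 2.83 in vehicle on day 4, and 38.9% ± 5.11 at 50 mg/kg and 51.4% ± 7.72 in vehicle on day 8. Pdk4 made up 10.01% ± 3.68 at 50 mg/kg and 2.79% ± 0.525 in vehicle on day 4.

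None of the 5 genes that bring pyruvate into the mitochondrion and oxidise it passed on either day. These are Pdha1 and Pdhb, the subunits of the complex's first enzyme, Dlat, its acetyltransferase core, and Mpc1 and Mpc2, the subunits of the mitochondrial pyruvate carrier. Their log2 fold changes lay between -0.03 and 0.13 on day 4 and between -0.14 and 0.03 on day 8, and their 95% intervals ran at the widest from -0.17 to 0.33 on day 4 and from -0.28 to 0.23 on day 8. Pdhb, for example, averaged 81.5 ± 5.02 TPM at 50 mg/kg and 82.6 ± 3.81 TPM in vehicle on day 4. On day 8 the mean was 75.5 ± 4.103 TPM at 50 mg/kg and 78.7 ± 3.69 TPM in vehicle. Pdha1 had the largest estimate of the 5 on day 8, with 154 ± 5.31 TPM at 50 mg/kg and 171 ± 19.6 TPM in vehicle (SD, n = 4 each; -0.14, adjusted p = 0.274).

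Glycogen stores glucose, and 1 of its 2 genes was lower on both days. Gys1, the glycogen synthase of muscle and most other tissues, had 22.8, 25.3, 22 and 24.6 TPM at 50 mg/kg and 28.9, 29.5, 33.6 and 32.9 TPM in vehicle on day 4. On day 8 it had 21.1, 21.01, 18.7 and 22.9 TPM at 50 mg/kg and 36.7, 28.1, 32.2 and 30.4 TPM in vehicle. It was lower without overlap on both days (log2 fold change -0.39, SE 0.09, adjusted p = 0.0079 on day 4 and log2 fold change -0.58, SE 0.09, adjusted p = 0.000821 on day 8). Gbe1, the branching enzyme, averaged 7.92 ± 1.05 TPM at 50 mg/kg and 7.16 ± 0.722 TPM in vehicle on day 4. On day 8 the mean was 6.95 ± 1.12 TPM at 50 mg/kg and 6.41 ± 1.31 TPM in vehicle, with neither difference past the threshold.

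At 25 mg/kg no member passed against vehicle on either day, nor did any of the 15736 genes (limma, 0%). At an unadjusted p below 0.05 were 1 of the 35 members on day 4, Pdk4, and 2 on day 8, Slc2a1 and Slc16a3. Of all genes, 4.6% and 2.97% were so, and counts this small do not set the members apart from them. On each day 28 of the 35 point estimates were below 0, with a median of -0.08 on both days, against 0.01 and 0.00 over all genes. The share of all genes below 0 is not given here. The estimates of a day rest on the same libraries, so their signs are not separate observations. Slc16a3 averaged 14.5 ± 2.88 TPM at 25 mg/kg and 21.8 ± 7.52 TPM in vehicle on day 8 (log2 fold change -0.51, SE 0.24, adjusted p = 1), and 15.8 ± 3.67 TPM at 25 mg/kg and 17.4 ± 3.67 TPM in vehicle on day 4 (-0.13). Slc2a1 averaged 42.7 ± 8.54 TPM at 25 mg/kg and 57.8 ± 11.6 TPM in vehicle on day 8 (log2 fold change -0.43, SE 0.18, adjusted p = 1). Pdk4 had 7.6, 4.62, 6.56 and 5.12 TPM at 25 mg/kg on day 4, all above the vehicle libraries of that day (log2 fold change 0.62, SE 0.20, adjusted p = 0.914). It was the 1 member whose libraries did not overlap vehicle on day 4, above it, where 3.06% of all genes did so (2.48% below). On day 8 none was apart from vehicle, where 0.782% of all genes were above and 0.845% below. The lower dose's sum over the 35 members was 7226 ± 653 TPM on day 4 and 7324 ± 520 TPM on day 8 (SD, n = 4 each), overlapping vehicle on both days.

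Set against each other, the 2 doses differed. On day 4, 12 members were lower at 50 than at 25 mg/kg and Pdk4 was higher, where 2.15% of all genes passed (1.15% higher and 1% lower). The 12 were Slc2a1, Gpi1, Pfkl, Aldoa, Tpi1, Gapdh, Pgk1, Pgam1, Eno1, Pkm, Ldha and Slc16a3. Of the 13 calls, 7 held in all 18 alternatives, Aldoa, Pgk1 and Pkm were lost in 1 and Eno1 in 3. The call on Pdk4 was lost in 9 (adjusted p up to 0.161): both scalings, no filter, the compared groups alone, and without 25 mg/kg replicate 2, 3 or 4 or 50 mg/kg replicate 3 or 4. That on Gapdh was also lost in 9 (adjusted p up to 0.168): TMM factors, no filter, and without any 1 library of the 2 groups except 25 mg/kg replicate 2. On day 8, 9 members were lower (Gpi1, Pfkl, Pfkp, Aldoa, Tpi1, Pgk1, Ldha, Slc16a3 and Gys1) and none was higher, where 1.08% of all genes passed (0.229% higher and 0.852% lower). TMM factors gave 100 higher and 110 lower genes on day 8 in place of 36 and 134, and 6 members lower. On day 8 the calls on Tpi1, Slc16a3 and Gys1 held in all 18 alternatives, while those on Pgk1, Pfkl, Gpi1, Ldha, Aldoa and Pfkp were lost in 2, 4, 6, 6, 9 and 9. Slc16a3 had 4.04, 3.2, 4.64 and 3.47 TPM at 50 mg/kg and 12.8, 17.1, 12.9 and 20.4 TPM at 25 mg/kg on day 4 (log2 fold change -1.78, SE 0.24, adjusted p = 0.000116). The day 8 levels were 3.15, 4.4, 4.88 and 7.68 TPM at 50 mg/kg and 11.4, 12.8, 15.97 and 17.7 TPM at 25 mg/kg (log2 fold change -1.39, SE 0.24, adjusted p = 0.00938). Tpi1 had 187, 178, 183 and 191 TPM at 50 mg/kg and 311, 344, 327 and 414 TPM at 25 mg/kg on day 4 (log2 fold change -0.91, SE 0.10, adjusted p = 6.03e-06). After 7 days it had 231, 237, 213 and 241 TPM at 50 mg/kg and 313, 312, 340.5 and 381 TPM at 25 mg/kg on day 8 (log2 fold change -0.54, SE 0.10, adjusted p = 0.0102). The libraries of both genes stood apart on both days. In all, 13 members had every 50 mg/kg library below every 25 mg/kg library on day 4 (4.47% of all genes) and 15 on day 8 (6.04%). None had every 50 mg/kg library above every 25 mg/kg library on day 4 (5.42% of all genes), Pdk4 included, and on day 8 Pfkfb4 did (3.82%; log2 fold change 0.67, SE 0.25, adjusted p = 0.184). These comparisons share the 50 mg/kg libraries with those against vehicle. On day 4 the count of members was 7 without 25 mg/kg replicate 4. On day 8 it was 3 without 25 mg/kg replicate 3 or 50 mg/kg replicate 3, 4 without 25 mg/kg replicate 2, 5 without 25 mg/kg replicate 4 and 5 in the fit of the 2 groups alone. Over all genes, the counts without single libraries are given below only as ranges. The member counts without single libraries therefore have no background from the same fit beside them.

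**Figure D4:**
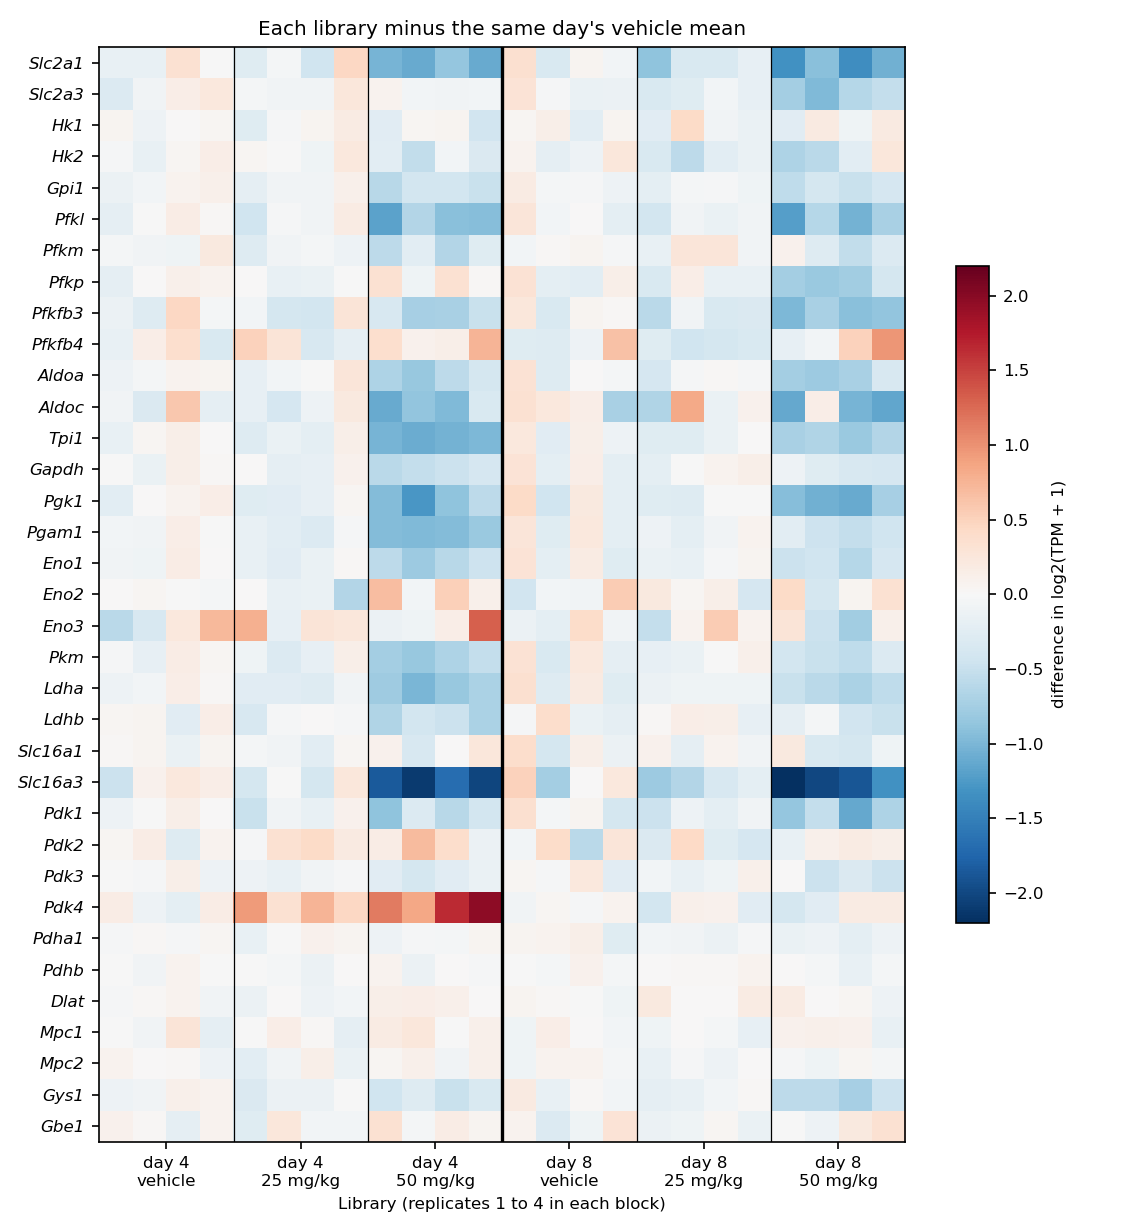
Difference in log2(TPM + 1) of each library from the vehicle mean of its day, for the 35 members in pathway order (rows) and the 24 libraries (columns, blocks of 4 by day and dose). The 50 mg/kg blocks are blue over most of glycolysis, Slc16a3 is the darkest with a mean difference of -1.91 on day 4, and the 25 mg/kg and vehicle blocks are pale apart from single libraries.

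The vehicle tumours themselves showed no member past the threshold between day 8 and day 4, as for all genes (0%; by unadjusted p below 0.05, 4 members and 11.1% of all genes). Slc2a1 averaged 57.8 ± 11.6 TPM in vehicle on day 8 and 44.6 ± 7.83 TPM on day 4 (log2 fold change 0.36, SE 0.18, adjusted p = 0.473). The vehicle libraries of day 8 were more spread than those of day 4 for many abundant members: Ldha ran from 425 to 656 TPM on day 8 and from 517 to 611 TPM on day 4, and the sum of the 35 from 6737 to 9256 TPM on day 8 and from 7234 to 8400 TPM on day 4.

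Of 81 further genes of carbohydrate metabolism, 73 were tested. At 50 mg/kg 8 were higher and 8 lower on day 4 (21.9%), where 9.26% of all genes passed. On day 8, 3 were higher and 3 lower, where 2.78% of all genes passed. Their median log2 fold change was 0.02 on day 4 and 0.00 on day 8. Among 15 other genes of glycolysis, Pgm2, a phosphoglucomutase, averaged 20.3 ± 1.15 TPM at 50 mg/kg and 33.2 ± 1.87 TPM in vehicle on day 4 (log2 fold change -0.68, SE 0.09, adjusted p = 5.94e-05) and was lower on day 8 too (log2 fold change -0.47, SE 0.09, adjusted p = 0.00618). Bpgm, whose enzyme makes bisphosphoglycerate, averaged 26.2 ± 1.39 TPM at 50 mg/kg and 38.8 ± 6.199 TPM in vehicle on day 4 (log2 fold change -0.53, SE 0.10, adjusted p = 0.00288). Its vehicle mean on day 8 was 28.1 TPM, below that of day 4 without overlap, as for 2.52% of all genes (-0.44, adjusted p = 0.281). At 50 mg/kg Bpgm differed by -0.03 from vehicle on day 8 (adjusted p = 0.904). The day 4 difference from 25 mg/kg was -0.19 (adjusted p = 0.443). Adpgk, an ADP-dependent glucokinase, was higher on day 4 (log2 fold change 0.43, SE 0.10, adjusted p = 0.015). Bsg, the chaperone that brings both lactate transporters to the membrane, averaged 591 ± 32.05 TPM at 50 mg/kg and 787 ± 110.2 TPM in vehicle on day 8 (SD, n = 4 each; log2 fold change -0.40, SE 0.09, adjusted p = 0.0144), with -0.26 on day 4 (adjusted p = 0.0634).

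Of 14 further glycogen genes, the primer gene Gyg (0.27) and the phosphorylase kinase subunit gene Phkb (0.39) were higher on day 4 and Gsk3b, whose kinase restrains glycogen synthase, was lower on day 8 (-0.29). Among 10 pentose phosphate genes, G6pdx, the entry enzyme, was lower on day 4 (-0.29, adjusted p = 0.0281) and Rpe, the ribulose phosphate epimerase gene, higher (0.18), and none passed on day 8. The 2 phosphatases that switch pyruvate dehydrogenase back on moved apart on day 4, with Pdp1 higher (0.35, adjusted p = 0.0235) and Pdp2 lower (-0.51, adjusted p = 0.0168), among 6 related genes of which none passed on day 8. Of 16 citric acid cycle genes, Ogdh, of the oxoglutarate dehydrogenase complex, was higher on both days (0.19 on day 4 and 0.21 on day 8), Sdhd, a succinate dehydrogenase subunit, was lower on day 4 (-0.24) and Cs, citrate synthase, higher on day 8 (0.19). Of these calls, Gyg, Phkb, Rpe and G6pdx on day 4 ended in 11, 9, 10 and 7 of 18 alternatives, and Cs and Gsk3b on day 8 in 10 and 6, among them fits without 1 library such as vehicle replicate 1 or 3 or 50 mg/kg replicate 3 of day 4 for the first 4. On day 4, 14.3% of the glycogen genes and 12.5% of the citric acid cycle genes passed, near the 9.26% of all genes. For the pentose phosphate and pyruvate dehydrogenase lists it was 20% and 33.3%. Each of these shares rests on 2 calls.

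Among 12 genes of gluconeogenesis and the reducing-equivalent shuttles, 2 were higher and 3 lower on day 4 (41.7%), where 9.26% of all genes passed. Pck2, the mitochondrial phosphoenolpyruvate carboxykinase, averaged 39.3 ± 3.63 TPM at 50 mg/kg and 12.8 ± 0.854 TPM in vehicle on day 4 (log2 fold change 1.55, SE 0.10, adjusted p = 2.01e-09) and 19.01 ± 1.19 TPM at 50 mg/kg and 13.8 ± 2.42 TPM in vehicle on day 8 (SD, n = 4 each; log2 fold change 0.45, SE 0.10, adjusted p = 0.0132). Mdh1, the cytosolic malate dehydrogenase, averaged 91.6 ± 7.28 TPM at 50 mg/kg and 135 ± 4.31 TPM in vehicle on day 4 (log2 fold change -0.55, SE 0.07, adjusted p = 2.35e-05), with -0.01 on day 8. The cytosolic and mitochondrial aspartate aminotransferase genes moved apart on day 4, with Got1 higher (0.91, adjusted p = 0.01) and Got2 lower (-0.32, adjusted p = 0.0016).

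Some levels are uncertain because reads can be shared. The sources used here do not say whether counting used the strand, and 7 members overlap a gene on the opposite strand with a mean of 1 TPM or more. For Gys1 and Pfkm the partner was the more abundant, Ruvbl2 at 75.8 TPM beside Gys1 at 27.6 TPM and Senp1 at 26.6 TPM beside Pfkm at 9.18 TPM. The others are Pfkp (Pitrm1, 39.4 TPM), Tpi1 (Spsb2, 10.1 TPM), Hk1 (Hk1os, 3.57 TPM), Gapdh (Iffo1, 2.31 TPM) and Pdha1 (Map3k15, 1.58 TPM). Near-identical copies also share stretches of 50 bases: Eno1b holds 70.5% of those of Eno1 and had 21.6 TPM, Gm5537 holds 67.7% of those of Pgk1 and had 46.0 TPM, Gm7336 holds 82.5% of those of Gapdh and had 9.80 TPM, and Mpc1-ps holds 23.3% of those of Mpc1 and had 16.4 TPM. The levels of these members may include or lack reads of such copies.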

How the data were processed

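RNA was extracted with an RNeasy kit and 1 µg of total RNA went into each strand-specific SureSelect library, per the labels' protocols. The tools named, per the submitters' processing notes, are RSEM 1.2.31, STAR 2.5.0c, Trimmomatic 0.36 and bcl2fastq, beside the genome builds mm10 and GRCm38. The authors deposited 1 table of TPM values for 47729 genes in 24 libraries. TPM keeps no depth, so precision rests on the 4 libraries per group. Which annotation was counted, and with or without strand, is not given in the sources used here; 47310 gene IDs matched GENCODE M21, which supplied gene spans.

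From the deposited values, log2(TPM + 1) of the 15736 genes with at least 1 TPM in at least 4 libraries was fitted with limma 3.58.1 in R 4.3.3. The fit had 1 mean per group over all 24 libraries (18 residual degrees of freedom), with moderated statistics, and p-values were adjusted by Benjamini-Hochberg over all genes tested in each comparison. The log2 scale with a pseudocount of 1 understates changes of low genes. Groups came from the labels. The comparisons were 50 mg/kg and 25 mg/kg with vehicle and 50 with 25 mg/kg within a day, vehicle between days, and the 50 mg/kg effect between days. The procedure was tested on simulated data. Alternatives were TMM and quantile scaling, other filters and pseudocounts, the compared groups alone, library weights, a replicate block, a skeletal muscle covariate, and leaving out each library.

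Every member is named or counted. Values per library are given for members past an adjusted p of 0.05 at 50 mg/kg against vehicle on either day and for their isoform partners; of related lists, at most 4 called genes each are named. The members and lists were chosen with earlier results of these data known. Shared 50-base stretches were counted between GENCODE transcripts.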

Additional observations from a re-analysis of the deposited data

Results flagged for a closer look

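Within the groups of 4, 15 of 210 gene and group combinations held 1 library far from the other 3 by Dixon's criterion; chance flags about 1 in 20. At 50 mg/kg on day 4, Slc2a3 was 2.87 TPM in replicate 1 (others 2.44 to 2.5), Pgam1 was 241.39 TPM in replicate 4 (others 216.66 to 220.48) and Eno3 was 17.58 TPM in replicate 4 (others 5.82 to 7.29). At 50 mg/kg on day 8, replicate 4 had 38.13 TPM of Pfkp (others 28.07 to 29.44), 656.03 TPM of Aldoa (others 482.01 to 508.62) and 45.67 TPM of Mpc1 (others 54.2 to 55.42). In the same group Aldoc was 186.28 TPM in replicate 2 (others 74.88 to 81.49). At 25 mg/kg on day 4, Slc2a3 was 3.36 TPM (others 2.46 to 2.53) and Ldha 524.53 TPM (others 456.65 to 467.97) in replicate 4, and Ldhb was 56.54 TPM in replicate 1 (others 70.83 to 72.64). At 25 mg/kg on day 8, Aldoa was 647.56 TPM in replicate 1 (others 818.4 to 850.95) and Pdk2 56.56 TPM in replicate 2 (others 31.84 to 34.27). In vehicle, Pfkm was 11.72 TPM in replicate 4 of day 4 (others 9.2 to 9.63), Slc16a1 was 22.96 TPM in replicate 3 of day 4 (others 26.01 to 26.42) and Pfkfb4 was 15.7 TPM in replicate 4 of day 8 (others 7.78 to 8.82).

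For 6 genes named here the 50 mg/kg effect differed between day 8 and day 4 (limma, adjusted p below 0.05). The difference in log2 fold change, day 8 minus day 4, was -1.48 for Pdk4, -1.10 for Pck2, -0.83 for Pfkp, 0.55 for Mdh1, 0.50 for G6pdx and 0.46 for Got2. The call on G6pdx ended in 11 of 26 alternatives (adjusted p up to 0.132) and that on Pfkp in 9. Those on Pdk4, Pck2, Mdh1 and Got2 held in all 26.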

How the results depend on the processing

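No named gene's called difference changed sign. Over all genes the balance did on day 4 at 50 mg/kg against vehicle, with 603 higher and 858 lower under TMM factors and 656 higher and 873 lower under quantile scaling, in place of 779 higher and 678 lower. It also turned without 50 mg/kg replicate 1 on that day (535 higher and 569 lower), on day 8 without vehicle replicate 4 (610 and 566, in place of 120 and 318), and for 50 against 25 mg/kg under quantile scaling on day 4 (172 and 176, in place of 181 and 158) and in the compared groups alone on day 8 (52 and 39, in place of 36 and 134). Over all alternatives the members past the threshold numbered 15 to 20 at 50 mg/kg against vehicle on day 4 (18 as reported). On day 8 (15 as reported) they numbered 13 to 22, apart from 0 in the fit of the compared groups alone. For 50 against 25 mg/kg they were 7 to 13 on day 4 (13 as reported) and 3 to 10 on day 8 (9 as reported) on leaving out single libraries. On day 8 they were 5 in the fit of the compared groups alone and 23 with library weights, and on day 4 19 with library weights. For the difference of the 50 mg/kg effect between days (2 as reported) they were 1 in the fit of the compared groups alone and 1 to 4 on leaving out single libraries. The 25 mg/kg and vehicle comparisons stayed at 0. Over all genes, library weights gave 3205 and 2888 calls at 50 mg/kg against vehicle on days 4 and 8 (1457 and 438 as reported), 1263 and 2264 for 50 against 25 mg/kg (339 and 170) and 745 for the difference between days (226). Leaving out single libraries gave 696 to 1305 and 180 to 1176, then 148 to 353 and 38 to 293, and 92 to 602, in the same order. The compared groups alone gave 12 on day 8, 91 for 50 against 25 mg/kg on day 8 and 68 for the difference between days, whose count was 148 with TMM factors and 343 with the replicate block. The fit of the compared groups has fewer libraries behind its spread in every comparison. The cause of its lower counts was not tested. With a replicate block the members numbered 17 and 16 at 50 mg/kg against vehicle, 14 and 8 for 50 against 25 mg/kg, 2 for the difference between days and 0 elsewhere. Apart from the difference between days, the counts over all genes in that fit are not given here. The labels do not say whether the replicate numbers pair libraries. Deviations of same-numbered libraries correlated with a median r of 0.022 over 60 pairs (from -0.329 to 0.421). For 180 pairs of unlike numbers the median was -0.017 (from -0.347 to 0.437). These correlations cannot decide whether some libraries are paired. Read depth is not known, which limits statements on the lowest members, Slc2a3 and Eno2.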
